A study of Mus musculus with 6 samples.

Results

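The mitochondrial genome and the nuclear genes that express and copy it were followed in mouse colon ILC2s as a set of 36 genes. They were taken by symbol from the 25865 genes of the deposited expression table. The set holds the 13 mitochondrially encoded mRNAs, the 2 mitochondrial ribosomal RNAs (rRNAs) and 21 nuclear genes whose products act in transcription, RNA processing, RNA decay, DNA replication or translation elongation in mitochondria. All 36 symbols were found in the table, and all 36 passed the filter on low values (a 6-sample mean of at least 1). The mitochondrial mRNAs carry short names there, such as COX1 for the gene annotated as mt-Co1.

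ILC2s, group 2 innate lymphoid cells, are tissue lymphocytes known for making type 2 cytokines. They were sorted from C57BL/6 large intestine and kept in culture for 5 days, with IL-33, IL-25, IL-7 and IL-2 in the medium (10 ng/mL of each). The toyocamycin group (3 samples) then received the compound for 16 h, and the Control group (3 samples) received vehicle. Cytokine culture and mouse strain were thus shared by both groups, and neither the dose of toyocamycin, an adenosine analogue, nor the time in vehicle is stated in the labels. No label says whether replicates are separate cultures or separate mice. The p-values therefore cover the spread among these 6 samples, and that spread may be technical.

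Mitochondrial DNA is a small circle that is transcribed from both strands into long RNAs, which are cut into mRNAs, rRNAs and transfer RNAs (tRNAs). Its mRNAs encode core subunits of the respiratory chain and of ATP synthase, and its rRNAs build the ribosome that translates them. Every protein needed to transcribe, cut, modify, degrade or translate these RNAs is made from nuclear genes and imported.

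Toyocamycin libraries held 22.3 M, 36.7 M and 23.9 M reads in genes, and Control libraries 25.5 M, 27.0 M and 26.9 M. Values are normalised read counts (reads divided by 1 size factor per library), and means are given with their SD (n = 3 per group). A log2 change with its SE, and a p-value adjusted over all 16223 genes tested, come from limma, and a gene was called when that p-value was under 0.05. Changes were common across the transcriptome: 32.8% of the genes tested were called higher with toyocamycin and 33.1% lower, 65.9% in all. The median log2 change of all genes was −0.03 with the deposited scaling and −0.36 when every library was scaled to the same total, and values under the second scaling (equal totals) are given beside the results that it changed. All 10 ILC2 markers examined were present, and they moved in both directions. Rora was 18128, 19294 and 18008 with toyocamycin, against 1538, 1399 and 1304 in Control, and Gata3 was 60472 to 71127 with toyocamycin and 31844 to 33186 in Control. Il13 was 11473 to 13804 with toyocamycin and 86022 to 92377 in Control, and Il7r, Il2ra, Il5, Il17rb, Klrg1 and Areg were also lower in every toyocamycin sample. The summed level of the list was 315193 to 343099 with toyocamycin and 456258 to 465641 in Control. T cell markers moved in both directions. Cd3e was 3.39 to 9.71 with toyocamycin and 34.4 to 35.98 in Control. Cd3d was also lower, at 0 to 2.64 with toyocamycin and 3.62 to 10.5 in Control. Cd3g was 168 to 230 with toyocamycin and 135 to 162 in Control. Trac was 79.2 to 84.7 with toyocamycin and 27.2 to 57.9 in Control, and the groups overlapped for Cd4, Cd8a and Cd8b1. Summed T cell markers were 276 to 324 with toyocamycin and 226 to 275 in Control. Those of NK cells and ILC1s summed to 29.6 to 46.2 with toyocamycin and 157 to 226 in Control, nearly all of it Prf1 (29.6 to 40.9 with toyocamycin, 154 to 221 in Control), with Ncr1, Klrb1c, Eomes and Tbx21 at or near 0 in both groups. Mast cell markers reached 43106 to 46746 with toyocamycin and 29283 to 30746 in Control, nearly all of it Kit, while the defining mast cell gene Fcer1a was at 0 in every library. Fibroblast and endothelial markers summed to 629 to 763 with toyocamycin and 1073 to 1275 in Control, mostly Pecam1 (519 to 596 with toyocamycin, 979 to 1056 in Control). The summed ranges of the ILC3, B cell, macrophage and epithelial lists overlapped, though single genes in them differed. Il17a was 133 to 157 with toyocamycin and 75.2 to 84.3 in Control. Il22 was 29.1 to 49.8 with toyocamycin and 99.2 to 117 in Control. Cd68 was 670 to 687 with toyocamycin and 408 to 493 in Control, and Vil1 was near 0 (1.32 to 4.86 and 0 to 0.878). The groups overlapped for the other genes of these lists. The part of these differences in the results was not tested, and in bulk samples fewer cells of a type and less RNA per cell cannot be told apart.

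Several mitochondrial genes have near-identical copies in the nuclear genome, which bears on what a read count for them can mean. In GENCODE vM21 (GRCm38), a row of pseudogenes on the minus strand of chromosome 1 matches a contiguous stretch of the mitochondrial genome from COX1 to ND4. COX2, ATP6, COX3, ND3 and ND4L are matched there over nearly their whole length with no mismatch. The first 100 bases of COX2, which encodes a subunit of cytochrome c oxidase, are shown beside its copy Gm28661, and a stretch of COX1, the catalytic subunit of the same enzyme, beside its copy Gm29216. COX2 is read at chrM:7013-7112 on the plus strand and Gm28661 at chr1:24615466-24615565 on the minus strand. The COX1 stretch is chrM:6390-6489 on the plus strand and that of Gm29216 chr1:24616089-24616188 on the minus strand. All are GENCODE transcript sequences, 5′ to 3′, and capitals mark the bases that differ between a gene and its copy.
COX2: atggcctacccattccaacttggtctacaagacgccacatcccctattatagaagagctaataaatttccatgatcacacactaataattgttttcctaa
Gm28661: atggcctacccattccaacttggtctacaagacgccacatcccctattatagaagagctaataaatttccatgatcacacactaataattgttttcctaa
COX1: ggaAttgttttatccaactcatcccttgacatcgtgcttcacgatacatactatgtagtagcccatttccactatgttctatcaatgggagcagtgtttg
Gm29216: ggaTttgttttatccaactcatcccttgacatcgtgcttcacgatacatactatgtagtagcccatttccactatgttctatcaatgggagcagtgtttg
Over 681 aligned bases, COX2 and Gm28661 were 100% identical. The alignment of COX1 with Gm29216 covered 483 bases, 31.26% of the gene, with the single mismatch A1066T, counted from 1 at the first base of COX1. ND4 was matched by Gm28439 over 876 bases, 63.57% of the gene, with no mismatch. Of all 50-base windows of COX1, 51.1% occur in another annotated gene, as do 62.2% of those of ND4. The share was 100% for COX2 and 0% for ND1, ND6, CYTB and mt-Rnr1. None of the chromosome 1 copies has a row in the deposited table.

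Mitochondrial mRNAs were higher with toyocamycin in 12 of 13 cases and lower in none, where 32.8% of all genes were called higher. Their median log2 change was 0.70, against −0.03 for all genes tested. With equal totals 6 were called higher and 1 (ND1) lower, with a median of 0.35 against −0.36 for all genes, and 24.9% of all genes were then called higher. The 6 that were called higher in all 16 alternatives to the limma fit were ND3, ND4, ND5, ND6, COX1 and CYTB. Mitochondrial mRNAs are poor in G and C (31.9% to 41.1%, against a median of 49.9% for the genes tested), and only 8.82% of tested genes had a GC content at or below the highest of them. After correction for GC content and length across all genes, the same 6 were called higher but by less, with log2 changes of 0.26 for ND3, 0.18 for ND6, 0.38 for ND4, 0.57 for ND5, 0.565 for COX1 and 0.21 for CYTB. ND1, ND2 and ATP8 were then called lower, and the median was 0.02. In that fit 5115 of all 15608 genes were called higher and 5093 lower, with a median of −0.01.

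COX1 (chrM:5328-6872), the mitochondrial mRNA with the most counted reads, had 624049, 675194 and 638151 normalised reads with toyocamycin, against 337135, 342157 and 350586 in Control. Every toyocamycin sample lay above every Control sample, and the mean was 1.88-fold higher (log2 change 0.91, SE 0.070, adjusted p = 1.73e-10). CYTB, which encodes cytochrome b of complex III, had 128668, 136932 and 125873 with toyocamycin and 81847, 80855 and 85666 in Control. Its 3 toyocamycin samples were also all higher, with a ratio of 1.58 (log2 change 0.66, adjusted p = 1.47e-09).

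Complex I, the entry point for electrons from NADH, has 7 subunits encoded in mitochondria, and their transcripts changed by unequal amounts. ND5 had 134344, 143639 and 123818 normalised reads with toyocamycin, against 69378, 69258 and 66241 in Control, a 1.96-fold difference (log2 change 0.97, SE 0.061, adjusted p = 6.20e-12). ND4 had 61765, 63810 and 59860 with toyocamycin, against 32750, 33467 and 34759 in Control (log2 change 0.88, SE 0.052, adjusted p = 2.16e-12). ND6, the one mRNA read from the other strand, had 21888, 24479 and 19324 with toyocamycin and 10428, 10653 and 11620 in Control (log2 change 1.00, SE 0.068, adjusted p = 2.13e-11). The strand setting of the counting is not given, so the ND6 count may include reads from the opposite strand. For ND4, ND5 and ND6 every toyocamycin sample lay above every Control sample.

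ND1 and ND2, which lie next to the rRNA genes at the start of the heavy-strand transcript, changed least among the 7 mRNAs with many reads. ND2 had 54919, 55920 and 53973 normalised reads with toyocamycin and 40808, 40917 and 42706 in Control (log2 change 0.41, adjusted p = 3.47e-07). With equal totals its log2 change was 0.06 and it was not called. ND1 had 85663, 89269 and 86110 with toyocamycin, against 71549, 72339 and 75750 in Control. It was called higher with the deposited scaling (log2 change 0.25, adjusted p = 3.38e-04) and called lower with equal totals (log2 change −0.10, adjusted p = 0.00544), so its direction depends on the scaling.

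**Figure D1:**
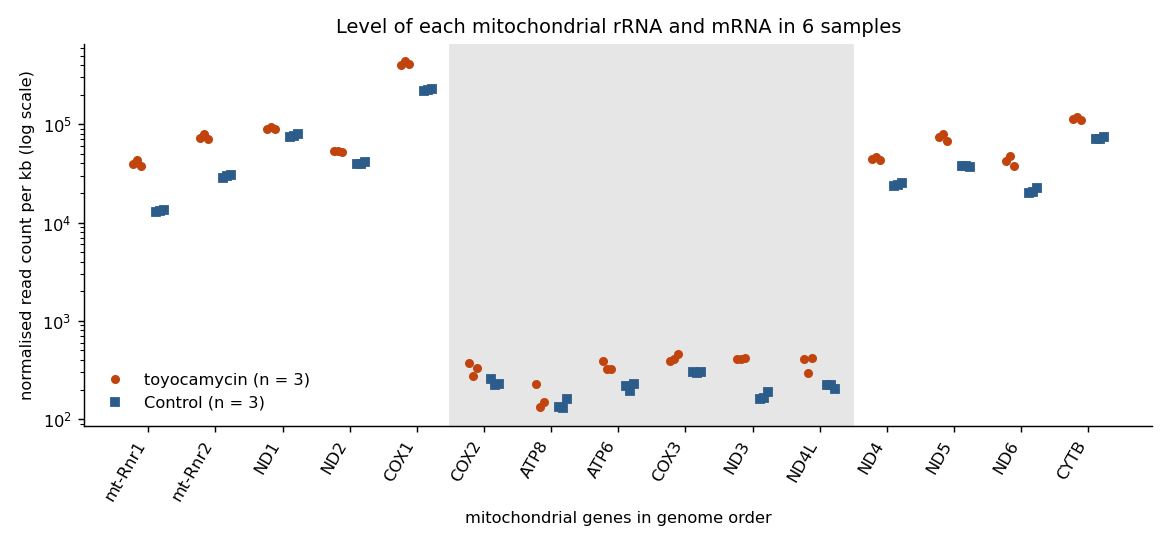
Normalised read count per kilobase (log axis) of the 15 mitochondrially encoded RNAs in genome order, 1 point per sample, with toyocamycin (circles) left of Control (squares). The grey band marks the 6 adjacent mRNAs from COX2 to ND4L, which lie far below the other 7.

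The remaining 6 mRNAs, COX2, ATP8, ATP6, COX3, ND3 and ND4L, are adjacent in the genome and had very few reads. Per kilobase of gene, they had 169 to 419 normalised reads with toyocamycin and 140 to 299 in Control, where the other 7 had 21002 (ND6) to 222196 (COX1) per kilobase in Control. ATP8, which has no annotated copy on chromosome 1, was as low as its neighbours. Only annotated transcripts were searched for copies. In the mitochondrial genome ATP8 lies between COX2 and ATP6, whose copies are at chr1:24614885-24615565 and chr1:24613974-24614651. An unannotated copy of ATP8 between them could not be seen. The sources used here do not give how reads matching several places were treated, and the part of the copies in these low counts was not tested.

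Within this low group, ND3 had 141, 142 and 146 normalised reads with toyocamycin, against 56.2, 57.0 and 65.8 in Control (log2 change 1.25, SE 0.22, adjusted p = 2.89e-05). ND3 encodes a small complex I subunit and had a ratio of 2.40, the highest of the mRNAs with the deposited scaling, on 107 to 168 reads per toyocamycin library. ATP6, a subunit of ATP synthase, had 264, 221 and 221 with toyocamycin, against 148, 131 and 156 in Control (log2 change 0.69, adjusted p = 5.89e-04). ND4L, another complex I subunit, had 121, 87.2 and 125 with toyocamycin and 66.1, 66.7 and 59.7 in Control (log2 change 0.77, adjusted p = 0.00732). COX3, a cytochrome c oxidase subunit, had 304, 321 and 361 with toyocamycin and 234, 231 and 238 in Control (log2 change 0.48, adjusted p = 0.00202). For these 4 the groups did not overlap, but the calls of ATP6, ND4L and COX3 were lost with equal totals (log2 changes of 0.35, 0.42 and 0.14, adjusted p = 0.0595, 0.130 and 0.345) and under the GC content and length correction (0.015, −0.034 and −0.067). COX2 had 254, 186 and 226 with toyocamycin and 174, 151 and 155 in Control, and its call (log2 change 0.46, adjusted p = 0.0168) was lost without toyocamycin replicate 1 (0.36, adjusted p = 0.0891) or without Control replicate 2 (0.42, adjusted p = 0.0596). The COX2 call was also lost with equal totals (0.11, adjusted p = 0.571) and under the GC content and length correction (−0.14). ATP8 had 46.2, 27.1 and 30.4 with toyocamycin and 27.2, 26.3 and 32.5 in Control, on 25 to 37 reads per library, and did not pass the test (log2 change 0.23, adjusted p = 0.611). Without these 6, all 7 remaining mRNAs were called higher with a median log2 change of 0.88, and with equal totals 5 were called higher and 1 lower. Of all genes, 32.8% were called higher with the deposited scaling, and 24.9% higher and 42.5% lower with equal totals.

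Because the 7 mRNAs with many reads changed unequally, the make-up of the counted mitochondrial mRNA reads shifted, a measure that does not depend on library scaling. The 6 mRNAs with few reads gave only 0.083% to 0.109% of these reads per sample. Of the 50-base windows of COX1 and ND4, 51.1% and 62.2% occur in another annotated gene. The shares are thus of counted reads and may differ from those of the RNA molecules. COX1 made up 56.8% ± 0.75 of mitochondrial mRNA reads with toyocamycin and 52.5% ± 0.16 in Control. ND1 made up 7.66% ± 0.14 with toyocamycin and 11.2% ± 0.13 in Control, the largest relative shift among the 7. ND2 made up 4.84% ± 0.12 with toyocamycin and 6.34% ± 0.051 in Control. The share of CYTB was 11.5% ± 0.11 with toyocamycin and 12.7% ± 0.20 in Control, and that of ND5 11.8% ± 0.52 against 10.4% ± 0.46. ND4 (5.44% ± 0.10 with toyocamycin, 5.14% ± 0.061 in Control) and ND6 (1.92% ± 0.16 with toyocamycin, 1.67% ± 0.065 in Control) took slightly larger shares. The groups did not overlap for any of these 7 shares, although the lowest toyocamycin value of ND6 (1.744%) nearly touched the highest Control value (1.739%).

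**Figure D2:**
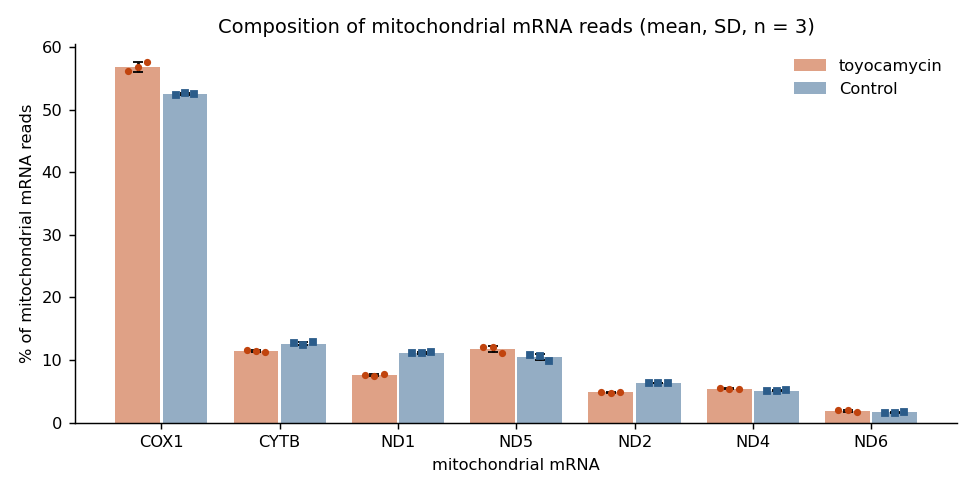
Percent of mitochondrial mRNA reads taken by each of the 7 mRNAs with many reads, with toyocamycin left of Control (bars: means, error bars: SD, n = 3, points: samples). COX1 takes 56.8% with toyocamycin and 52.5% in Control, and ND1 takes 7.66% with toyocamycin and 11.2% in Control.

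The mitochondrial rRNAs changed more than any of the 7 mRNAs with many reads. mt-Rnr1, the rRNA of the small ribosomal subunit, had 37544, 41630 and 36193 normalised reads with toyocamycin, against 12221, 12580 and 12961 in Control. That is 3.06-fold higher (log2 change 1.61, SE 0.055, adjusted p = 2.95e-16), with all 3 toyocamycin samples far above Control. mt-Rnr2, the rRNA of the large subunit, had 114049, 126658 and 113021 with toyocamycin and 45141, 46564 and 47911 in Control, a ratio of 2.53 (log2 change 1.34, SE 0.058, adjusted p = 1.19e-14). Both rRNAs were called higher in all 16 alternatives, with a lowest log2 change of 1.02 for mt-Rnr1 and 0.86 for mt-Rnr2. The labels' protocols name neither poly(A) selection nor removal of rRNA, so how these rRNAs were captured is not known. Rn45s, the cytosolic rRNA precursor, was higher in the same samples, at 203400 ± 42500 normalised reads with toyocamycin and 39580 ± 18840 in Control (log2 change 2.46, adjusted p = 1.62e-09), and its part in the result was not tested.

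Ratios within a library, which do not depend on scaling, were also compared. The mitochondrial genome gave 4.33% ± 0.037 of all reads with toyocamycin and 3.04% ± 0.050 in Control. Its rRNAs gave 0.523% ± 0.015 with toyocamycin and 0.252% ± 0.0053 in Control, a 2.07-fold difference, and its mRNAs 3.81% ± 0.025 with toyocamycin and 2.79% ± 0.045 in Control. The rRNA to mRNA ratio was 0.137 ± 0.0035 with toyocamycin and 0.0904 ± 0.0012 in Control, 1.52-fold higher. The ratio of mt-Rnr1 to mt-Rnr2 was 0.326 ± 0.0050 with toyocamycin and 0.270 ± 0.00028 in Control. For ND6 over the 12 mRNAs of the other strand, the ratio was 0.0196 ± 0.0017 with toyocamycin and 0.0169 ± 0.00067 in Control, and the closest samples were 0.01775 with toyocamycin and 0.01770 in Control. As the strand setting of the counting is not given, this is a ratio of counted reads and may not be one of the 2 strands. The groups did not overlap for any of these ratios. Each had p = 0.1 in a two-sided exact permutation test, the smallest p that 3 samples against 3 can give.

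Of all genes tested, 32.8% were called higher with toyocamycin and 33.1% lower, with a median log2 change of −0.03. Among the 21 nuclear genes, 12 were called higher with toyocamycin, 1 (Tfb1m) lower and 8 neither way, with a median log2 change of 0.37. With equal totals 8 were called higher and 6 lower (Tfb1m, Polrmt, Lrpprc, Elac2, Polg and Tsfm), with a median of 0.02 against −0.36 for all genes, where 24.9% of all genes were called higher and 42.5% lower. After GC content and length correction 10 were called higher and 1 lower, as Tfam, Pnpt1, Ssbp1 and Gfm1 lost their calls and Polrmt and Elac2 were called higher. In that fit 5115 of all 15608 genes were called higher and 5093 lower. The 9 that kept their call in all 16 alternatives were Tfb1m, lower, and Tfb2m, Mterf3, Supv3l1, Mtpap, Fastkd2, Fastkd5, Polg2 and Tufm, higher. By edgeR on the recovered reads, 12 mitochondrial mRNAs and 12 nuclear genes were called higher and 1 nuclear gene lower, where 38.5% of the 12949 genes tested were higher and 41.2% lower. Groups did not overlap for 15 of the 21, against 69.1% of all genes tested.

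The largest changes in opposite directions were in a pair of related genes. Tfb2m (chr1:179528052-179546305) encodes the factor that opens mitochondrial promoters for the RNA polymerase. It had 1561, 1463 and 1418 normalised reads with toyocamycin, against 379.6, 353 and 381 in Control, 3.99-fold higher (log2 change 1.99, SE 0.082, adjusted p = 5.26e-15). Tfb1m (chr17:3519250-3557796) encodes a related enzyme that methylates the rRNA of the small subunit. It had 29.1, 55.9 and 32.8 with toyocamycin (22, 66 and 27 reads), against 169, 152 and 139 in Control (186, 173 and 158 reads), 3.90-fold lower (log2 change −1.99, SE 0.27, adjusted p = 1.23e-06). Its substrate, mt-Rnr1, was higher in the same samples. The ratio of Tfb1m to Tfb2m was 0.0266 ± 0.010 with toyocamycin and 0.413 ± 0.043 in Control, 15.5-fold lower with no overlap (two-sided exact permutation test, p = 0.1, the smallest possible). This ratio was not among the planned measures. Both genes were already separate in opposite directions, so its separation and p-value were fixed in advance and add no support. Of the 50-base windows of Tfb2m, 39.6% also occur in the pseudogene Gm1818, which had 506 ± 69.8 normalised reads with toyocamycin and 204 ± 8.91 in Control (log2 change 1.30, adjusted p = 6.98e-09), so reads may be split between them.

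The promoters of this pair are printed with that of Fastkd5, which changed as much as Tfb2m. They are RefSeq sequences (GRCm38.p6) from 250 bases before to 50 after the annotated start, all on the minus strand, at chr17:3557706-3558005 for Tfb1m, chr1:179546227-179546526 for Tfb2m and chr2:130629953-130630252 for Fastkd5. Capitals mark a match to CCGGAAGT, the letters searched on both strands for GABPA (NRF-2), a known regulator of nuclear genes for mitochondria.
Tfb1m: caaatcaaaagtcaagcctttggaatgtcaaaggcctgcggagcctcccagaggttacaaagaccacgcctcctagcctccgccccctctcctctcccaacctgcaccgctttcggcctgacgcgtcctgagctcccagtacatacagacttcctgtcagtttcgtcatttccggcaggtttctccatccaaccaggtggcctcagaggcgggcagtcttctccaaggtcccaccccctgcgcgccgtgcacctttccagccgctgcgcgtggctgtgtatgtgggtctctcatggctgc
Tfb2m: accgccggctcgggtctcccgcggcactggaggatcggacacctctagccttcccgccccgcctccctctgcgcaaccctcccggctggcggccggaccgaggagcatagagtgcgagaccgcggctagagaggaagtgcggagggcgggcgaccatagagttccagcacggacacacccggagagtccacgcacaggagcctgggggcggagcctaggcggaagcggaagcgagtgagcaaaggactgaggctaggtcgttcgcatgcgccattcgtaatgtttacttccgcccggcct
Fastkd5: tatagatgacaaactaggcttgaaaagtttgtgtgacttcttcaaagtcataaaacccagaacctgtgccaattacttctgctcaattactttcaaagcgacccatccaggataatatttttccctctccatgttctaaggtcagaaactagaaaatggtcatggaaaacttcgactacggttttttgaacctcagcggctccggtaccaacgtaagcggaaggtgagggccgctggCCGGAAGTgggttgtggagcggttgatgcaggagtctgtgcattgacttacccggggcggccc
CCGGAAGT was present in the promoters of 6 of the 19 nuclear members with a RefSeq promoter (Fastkd5, Gfm1, Polg, Tefm, Tfam and Tufm), and in 3.89% of all 32851 promoters. The palindromic consensus of the regulator NRF1, also searched on both strands, was present in that of Polrmt alone, and in 4.60% of all promoters. No exact match to either motif was found in the windows of Tfb1m and Tfb2m. Only exact matches were searched, so a site that differs from these letters by a base would not be seen. A match of letters is a description of the sequence and shows no binding.

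Other transcription factors of mitochondria changed less than Tfb2m. Polrmt, the mitochondrial RNA polymerase, had 1062, 1198 and 1156 normalised reads with toyocamycin, against 1076, 956 and 1028 in Control. The groups overlapped and it did not pass the test (log2 change 0.16, adjusted p = 0.0711), while it was called higher without toyocamycin replicate 1 (0.21, adjusted p = 0.0374) and under the GC content and length correction (0.45, adjusted p = 4.87e-04), and called lower with equal totals (−0.19). Tfam, which packages mitochondrial DNA and bends its promoters, had 1162, 1248 and 1101 with toyocamycin, against 862, 964 and 1043 in Control. Its groups did not overlap and it was called higher (log2 change 0.29, adjusted p = 0.00306), but its log2 change was −0.05 with equal totals and 0.12 (adjusted p = 0.283) after GC content and length correction, neither of them called. Tefm, an elongation factor, had 128, 111 and 107 with toyocamycin and 82.5, 86.9 and 84.3 in Control and did not pass (log2 change 0.44, adjusted p = 0.0738), although its groups did not overlap. Mterf3, which in mice is known to repress mitochondrial transcription and to act in ribosome assembly, had 794, 777 and 779.5 with toyocamycin and 429, 458 and 503 in Control, and was called higher (log2 change 0.76, adjusted p = 1.71e-07).

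**Figure D3:**
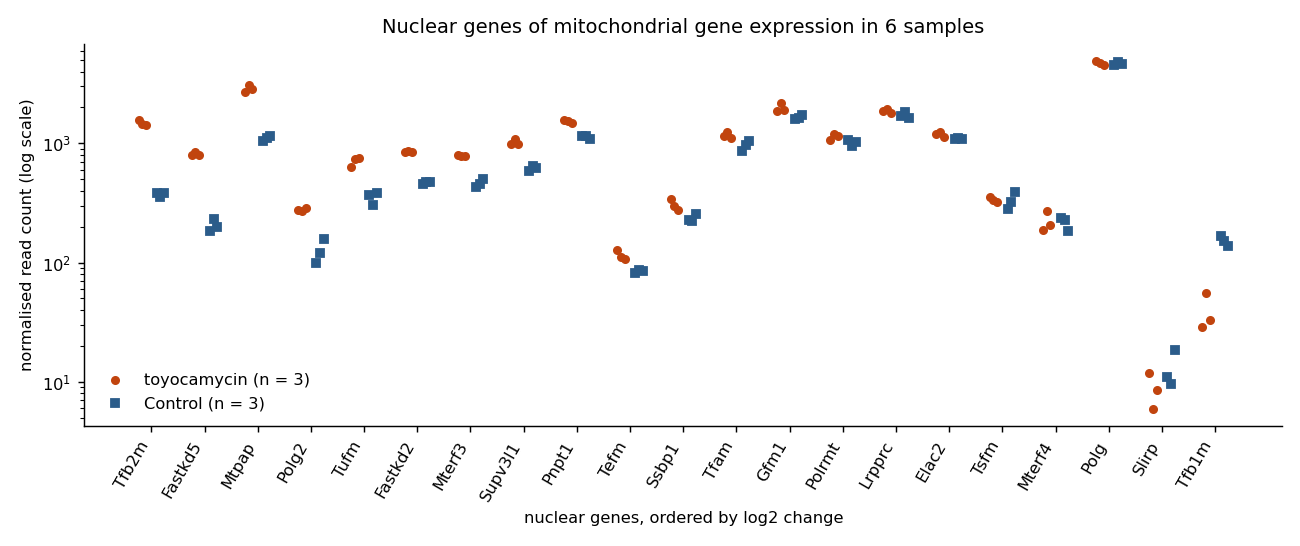
Normalised read counts (log axis) of the 21 nuclear genes, ordered by log2 change, 1 point per sample, with toyocamycin (circles) left of Control (squares). Tfb2m, Fastkd5 and Mtpap lie above Control in every toyocamycin sample, and Tfb1m lies below it.

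Beside Tfb1m, the set holds 2 genes that act on the large ribosomal subunit and its rRNA. Fastkd2, which binds the large-subunit rRNA and is needed for ribosome assembly, had 839.9, 860.5 and 838 normalised reads with toyocamycin, against 458, 475 and 473 in Control, 1.81-fold higher (log2 change 0.85, adjusted p = 1.00e-08). Mterf4, which brings a methyltransferase to the large subunit, had 188, 272 and 205 with toyocamycin and 237, 229 and 183 in Control, and the groups overlapped (log2 change 0.02, adjusted p = 0.914). Of its windows, 59.3% lie in Sned1 on the opposite strand, which averaged only 2.22 normalised reads with toyocamycin and 2.69 in Control.

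Of 3 RNA processing genes, Fastkd5 and Mtpap were called higher and Elac2 was not called. Fastkd5 (chr2:130613846-130630002), needed for the cutting of mitochondrial RNA at sites with no tRNA between them, had 796, 852 and 795 normalised reads with toyocamycin, against 184, 233 and 199 in Control, 3.96-fold higher (log2 change 1.99, SE 0.11, adjusted p = 9.81e-13). Its annotated exons are shared over 65.2% of their length with Ubox5 on the same strand, which was lower, at 237 ± 31.9 with toyocamycin and 341 ± 17.1 in Control (log2 change −0.53, adjusted p = 0.00145). Mtpap, the mitochondrial poly(A) polymerase, had 2694, 3081 and 2866 with toyocamycin and 1042, 1104 and 1161 in Control, 2.61-fold higher (log2 change 1.38, SE 0.067, adjusted p = 8.54e-14). An antisense gene, Gm26865, holds 30.6% of its windows and has no row in the table. Elac2, which trims the ends of tRNAs, had 1191, 1242 and 1134 with toyocamycin and 1086, 1115 and 1094 in Control and did not pass the test (log2 change 0.11, adjusted p = 0.160). It was called lower with equal totals (−0.24, adjusted p = 0.00173) and higher after GC content and length correction (0.455, adjusted p = 1.025e-04), so its direction depends on the processing.

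Both genes of RNA decay were called higher, and neither gene of mRNA stability was called. Supv3l1, the helicase of the mitochondrial RNA-degrading complex, had 981, 1085 and 992 normalised reads with toyocamycin, against 583, 650.3 and 615 in Control (log2 change 0.73, adjusted p = 7.47e-08). Pnpt1, its nuclease partner, had 1565, 1552 and 1486 with toyocamycin, against 1157, 1151 and 1079 in Control (log2 change 0.44, adjusted p = 4.72e-06). Both were called higher without overlap of the groups, though the call of Pnpt1 was lost with equal totals (0.09, adjusted p = 0.171) and under the GC content and length correction (0.16, adjusted p = 0.0722). Lrpprc, which with Slirp protects mitochondrial mRNAs, had 1867, 1953 and 1792 with toyocamycin and 1706, 1835 and 1640 in Control, and was not called (log2 change 0.12, adjusted p = 0.124), while it was called lower with equal totals (−0.23). Slirp itself had 11.9, 5.93 and 8.50 with toyocamycin and 10.9, 9.65 and 18.4 in Control, on 7 to 21 reads per library (log2 change −0.51, SE 0.54, adjusted p = 0.428). With so few reads no difference in Slirp could be detected, and 93.7% of the windows of its longest annotated transcript occur in the opposite-strand genes Snw1 and Alkbh1.

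Of 3 genes for mitochondrial DNA replication, Polg2 and Ssbp1 were called higher and Polg was not called. Polg2, the accessory subunit of the DNA polymerase, had 273, 268 and 285 normalised reads with toyocamycin, against 98.8, 120.2 and 157 in Control, 2.20-fold higher (log2 change 1.16, SE 0.17, adjusted p = 4.74e-06). Polg, the catalytic subunit, had 4868, 4734 and 4552 with toyocamycin and 4510, 4837 and 4631 in Control. Its groups overlapped, with a log2 change of 0.02 (adjusted p = 0.785) that became −0.33, called lower, with equal totals. Ssbp1, the single-stranded DNA binding protein of the replication fork, had 341, 299 and 277 with toyocamycin and 227, 224 and 255 in Control. Its call (log2 change 0.37, adjusted p = 0.0180) was lost with equal totals (0.02, adjusted p = 0.876) and under the GC content and length correction (0.04, adjusted p = 0.842). It was also lost without toyocamycin replicate 1 (0.29), Control replicate 1 (0.35) or Control replicate 2 (0.34).

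Of 3 translation elongation factors, Tufm and Gfm1 were called higher and Tsfm was not called. Tufm, which brings aminoacyl-tRNAs to the mitochondrial ribosome, had 634, 740.2 and 758 normalised reads with toyocamycin, against 367, 301 and 382 in Control, 2.03-fold higher (log2 change 1.02, SE 0.11, adjusted p = 3.92e-08). Of its windows, 68.2% occur in the pseudogene Gm9755, which has no row in the table. Tsfm, which recharges Tufm with GTP, had 355, 332 and 324 with toyocamycin and 282, 321 and 393 in Control, with overlap (log2 change 0.03, adjusted p = 0.835), and was called lower with equal totals (−0.31). Gfm1, which moves the ribosome along the mRNA, had 1863, 2176 and 1918 with toyocamycin, against 1597, 1641 and 1721 in Control (log2 change 0.26, adjusted p = 0.00185), and it was not called with equal totals (−0.09) or after GC content and length correction (0.15, adjusted p = 0.0957). Leaving out the 6 nuclear genes with over 10% of their windows in another gene (Tfb2m, Mterf4, Slirp, Mtpap, Fastkd5 and Tufm) left 8 called higher and 1 lower of 15, with a median log2 change of 0.29. With equal totals these 15 had 4 called higher and 6 lower, with a median of −0.05. Of all genes, 32.8% were called higher and 33.1% lower with the deposited scaling, and 24.9% and 42.5% with equal totals. The counts of these 15 with equal totals are near those shares.

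**Figure D4:**
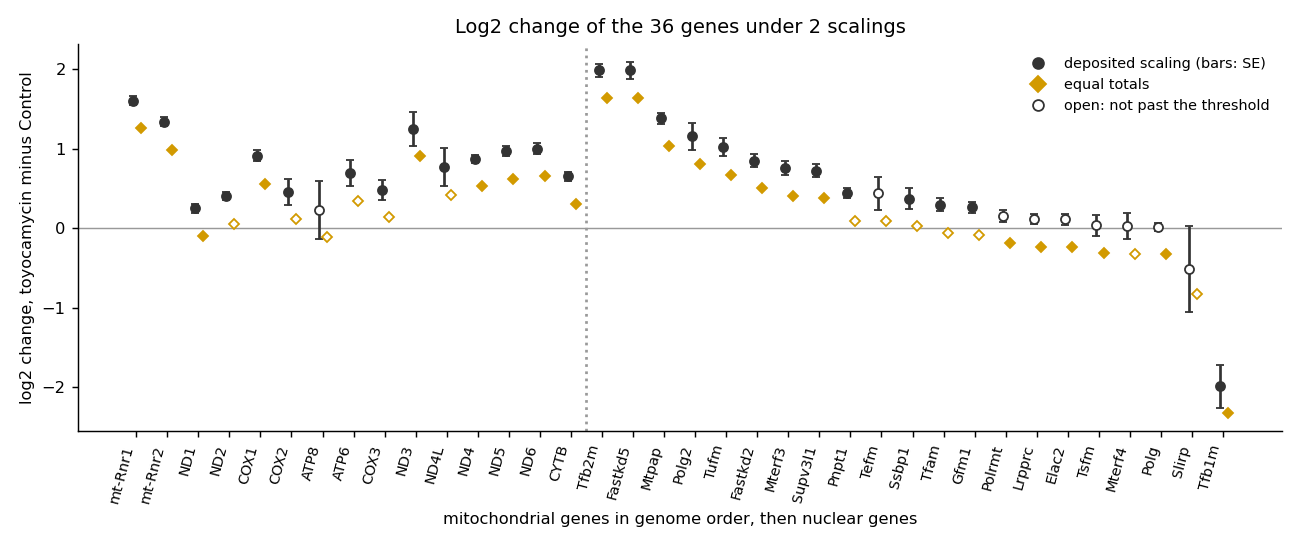
Log2 change (toyocamycin minus Control) of all 36 genes, with circles and SE bars for the deposited scaling and diamonds for equal totals, filled where the gene was called and open where it was not. Both rRNAs and Tfb2m, Fastkd5 and Mtpap lie above 0 and Tfb1m below 0 under both scalings, while ND1 lies above 0 with the deposited scaling and below 0 with equal totals.

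Among 81 other genes for mitochondrial gene expression, 32 were called higher and 34 lower, with a median log2 change of −0.06, near the −0.03 of all genes, where 32.8% of all genes were called higher and 33.1% lower. With equal totals 24 were called higher and 41 lower, where 24.9% of all genes were higher and 42.5% lower. The counts by role stand beside the same shares, and that of RNA processing is close to them. By role, genes for replication and nucleotide supply were lower in 10 of 11 cases under both scalings, and Atad3a, a membrane protein that contacts mitochondrial nucleoids, was the exception (log2 change 0.87, adjusted p = 2.29e-10). Chosen for naming after their values were seen, Dguok, a kinase that supplies purine nucleotides for mitochondrial DNA, had a log2 change of −1.39, and Twnk, the replicative helicase, of −0.63. All 4 genes listed under transcription, Mterf1a, Mterf1b, Mterf2 and Tbrg4, were called higher, 3 of them with equal totals. Sequence shared among these 4 or with other genes was not searched for, so they may not be separate observations. Genes of RNA processing and modification were higher in 11 and lower in 10 of 28 cases (8 and 12 with equal totals). Of 4 RNA decay genes, 2 were higher and 2 lower (0 and 2 with equal totals). Those of ribosome assembly were higher in 7 and lower in 2 of 13 (5 and 5 with equal totals). In translation, initiation and release factors among them, 3 were higher and 9 lower of 13 (3 and 10 with equal totals).

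The strongest of these were Trmt10c, a subunit of the enzyme that cuts the leading ends of mitochondrial tRNAs, at 1668 ± 27.3 normalised reads with toyocamycin and 443.5 ± 0.44 in Control (log2 change 1.91, adjusted p = 2.09e-15). Next was Trit1, a tRNA-modifying enzyme, at 750.3 ± 40.0 with toyocamycin and 216 ± 18.0 in Control (log2 change 1.79). Yy1, a transcription factor with many targets, had 9783 ± 513 with toyocamycin and 2878 ± 97.3 in Control (log2 change 1.76). In the other direction, Mtrfr, a factor that rescues stalled ribosomes, had 74.1 ± 7.88 with toyocamycin and 269.6 ± 42.6 in Control (log2 change −1.84, adjusted p = 1.55e-08). Rpusd3, a pseudouridine synthase, had 55.9 ± 11.1 with toyocamycin and 175 ± 29.04 in Control (log2 change −1.64). Mtif2, which starts translation, had 310.5 ± 5.07 with toyocamycin and 959.5 ± 30.0 in Control (log2 change −1.62, adjusted p = 7.19e-13). All 6 kept their direction with equal totals. Among the 8 nuclear regulators, Yy1, Nrf1, Gabpb1 and Gabpa were called higher and Esrra lower (4 higher and 2 lower with equal totals).

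Proteins that join the mitochondrially encoded products in the same complexes are encoded in the nucleus and were counted in 2 lists. Of 86 genes listed by symbol as nuclear-encoded respiratory chain subunits, 81 were tested, 31 were called higher and 15 lower. Their median log2 change was 0.13, where 32.8% of all genes were higher and 33.1% lower. With equal totals 14 were higher and 31 lower, where 24.9% of all genes were higher and 42.5% lower. Of 78 mitochondrial ribosomal proteins, 77 were tested, 28 were called higher and 33 lower, with a median of −0.03, and with equal totals 17 were higher and 43 lower, beside the same shares of all genes. The most raised genes of the respiratory chain list were Ndufa5 (log2 change 1.04), Cox7a2l (0.92) and Ndufa1 (0.91), and the most lowered were Ndufs3 (−1.10), Cox5b (−0.86) and Ndufs8 (−0.76). Among ribosomal proteins, Mrps30 (log2 change 2.13), Mrpl44 (1.78) and Mrpl50 (1.62) rose most, and Mrpl51 (−1.998), Mrpl17 (−1.89) and Mrpl41 (−1.79) fell most. Mrps30, a large-subunit protein despite its name, had 3729 ± 236 normalised reads with toyocamycin and 852 ± 43.6 in Control (adjusted p = 7.50e-17). Mrpl51, also of the large subunit, had 186 ± 29.9 with toyocamycin and 739 ± 24.1 in Control (adjusted p = 4.17e-12). For these 12 named genes the direction was the same with equal totals.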

How the data were processed

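RNA was extracted with TRIzol and sequenced by a standard Illumina protocol in 3 toyocamycin and 3 Control samples, per the labels' protocols. The authors used cutadapt 4.7, FastQC and the build mm10, per the submitters' processing notes. The sources used here do not give the aligner, the counting program, the strand setting or the annotation. The deposited values, in a table named for FPKM, are a normalised signal: with a tolerance of 0.01 reads, 100% of the values in each sample are a whole number of reads divided by 1 size factor per sample. They are called normalised read counts here. Library totals are sums of the recovered reads, and counting error does not cover duplicated molecules.

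Values were tested as log2(value + 1) for the 16223 of 25865 genes whose mean was 1 or more (7593 had no read in any sample). The pseudocount understates the change of genes with few reads. The test, two-sided, was limma 3.58.1 in R 4.3.3 with its intensity trend, Benjamini-Hochberg adjusted over all genes tested, with a threshold of 0.05. Replicates were compared by chi-square, which exceeded counting noise in every pair (3.96 to 7.76 per degree of freedom), so all 6 samples were kept. Alternatives were other pseudocounts, filters and scalings, edgeR 4.0.16 and DESeq2 1.42.0 on the recovered reads, a replicate block, correction for GC content and length, and leaving out each sample. The fit was also run on simulated data in which few genes were changed. That run does not cover the widespread changes and unequal library totals of these data. Sequence copies and lengths come from GENCODE vM21, and promoters from RefSeq (GRCm38.p6). The respiratory chain list was taken by gene symbol. It leaves out the Ndufaf assembly factors and symbols marked as pseudogenes, and other genes that are not subunits were not searched for.

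The members and lists were chosen with earlier results of these data known. All 36 members are described. From each other list, the 3 genes with the highest and the 3 with the lowest log2 change are named, among those called with a mean of at least 100.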

Additional observations from a re-analysis of the deposited data

How the results depend on the processing

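Both rRNAs were called higher under all 16 alternatives. With equal totals, 6 mitochondrial mRNAs were called higher and 1 lower, 6 nuclear members lower, 14 respiratory chain subunits higher and 31 lower, and 17 mitochondrial ribosomal proteins higher. With totals equal apart from mitochondrial genes and Rn45s (the cytosolic rRNA precursor), 1 mRNA and 4 nuclear members were lower, 14 subunits higher and 31 lower, and 18 ribosomal proteins higher. Of all genes, 24.9% were called higher and 42.5% lower with equal totals. With mitochondrial genes and Rn45s left out of the totals, 4128 of all 16236 genes were higher and 6768 lower. Correction for GC content and length left 6 mRNAs higher and 3 lower. Leaving out the 6 mRNAs with few reads, chosen after seeing the data, left 7 higher. The cause of these shifts was not tested.

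Log2 changes turned negative with equal totals in ND1 (−0.10), ATP8 (−0.11), Tfam (−0.055), Polrmt (−0.19), Mterf4 (−0.32), Lrpprc (−0.23), Elac2 (−0.24), Polg (−0.33), Tsfm (−0.31) and Gfm1 (−0.087). With mitochondrial genes and Rn45s left out of the totals, the same genes had −0.073, −0.082, −0.028, −0.16, −0.30, −0.21, −0.21, −0.30, −0.29 and −0.060 in that order. With the GC content and length correction ND1 had −0.28, ND2 −0.16, ND4L −0.034, COX2 −0.14, COX3 −0.067 and ATP8 −0.99. With edgeR, Mterf4 had −0.00030, Polg −0.022 and Tsfm −0.019. Without 1 sample at a time, Mterf4 ranged from −0.13 to 0.13, Polg from −0.0050 to 0.045 and Tsfm from −0.077 to 0.16, and counts of higher mRNAs from 11 to 12 and of higher nuclear members from 11 to 12.

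Same-numbered samples did not deviate together (correlations −0.0304, 0.0515 and −0.0895), so the numbers were not taken as pairs. With a replicate block, 5272 genes were called higher and 5298 lower over all genes, 12 mRNAs and 12 nuclear members were called higher and 1 nuclear member lower. Few reads limit the test of ATP8 and Slirp, with at most 37 and 21 per library, and the cause of these low counts was not tested.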
